A study of Sus scrofa with 6 samples.

Results

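The genes described here are 10 sensors and targets of the cellular response to low oxygen: EPO, VEGFA, HIF1A, EPAS1, EGLN1, EGLN3, ADM, SLC2A1, PDK1 and BNIP3. Their members on the array were the probe sets whose annotation carries 1 gene symbol and whose symbol is one of these names, which gave 15 probe sets for 7 genes among 23999 probe sets. EGLN3, PDK1 and BNIP3 matched no such probe set and were not analysed here. RNA came from the renal medulla of adult female White-Landrace crossbred pigs, called Large White-Landrace in the methods, with 1 Affymetrix porcine array per animal. In the CPB group (n = 3) anaesthetised pigs were put on cardiopulmonary bypass through the opened neck for 2.5 hours, while the Sham group (n = 3) was kept anaesthetised for as long, with the neck dissected but without bypass. Both groups received heparin, and the medulla was sampled 24 hours after the intervention. The samples were blocks of outer medulla, so each array reads a mixture of cell types. The study addressed how the medulla responds to CPB in a model in which the authors describe low medullary oxygen, and the comparison below gives the RNA of the hypoxia genes in it.

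Cells sense oxygen through prolyl hydroxylases, of which EGLN1 is the main one. With oxygen present these enzymes mark the alpha subunits of hypoxia-inducible factor, HIF1A and EPAS1, for destruction through the VHL ubiquitin ligase. When oxygen is short the alpha subunits persist, pair with ARNT and raise the transcription of target genes. Regulation of the alpha subunits is thus largely at the level of protein, which arrays do not measure. Among the targets, EPO drives red cell production, VEGFA drives vessel growth, ADM is a vasodilator peptide, and SLC2A1 is the glucose transporter GLUT1. The renal medulla works at low oxygen tension in health, and in the kidney EPO is made by interstitial cells while EPAS1 is found mainly in endothelial and interstitial cells and HIF1A mainly in tubule cells.

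None of the 15 probe sets met the study's threshold, which is an unadjusted p under 0.05 with at least a 1.6-fold difference between the groups. Over all probe sets 0.304% met it, 0.0875% with a higher and 0.217% with a lower mean in CPB. The smallest unadjusted p among the 15, from limma's moderated test, was 0.056, that of EPO, while 1.40% of all probe sets had one under 0.05. The adjusted p-values lay between 0.995 and 0.997. Of the 7 genes on their brightest probe sets, 4 had a higher mean and 3 a lower mean in CPB, and 55.9% of all probe sets had a higher one. The group means differed by at least 1.6-fold on 4 probe sets, that of EPO with a higher and 3 of HIF1A with a lower mean in CPB, against 3.14% of all probe sets (1.38% higher and 1.76% lower). The groups overlapped on each of these 4. They lay apart on 2 of the 15 probe sets, against 5.27% of all, and both differences were small. Every log2 difference given here is the mean log2 intensity of CPB minus that of Sham, with its standard error (SE) and n = 3 animals per group. Intensities are RMA values on the linear scale. They are compared between arrays for 1 probe set at a time and not between probe sets.

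**Figure D1:**
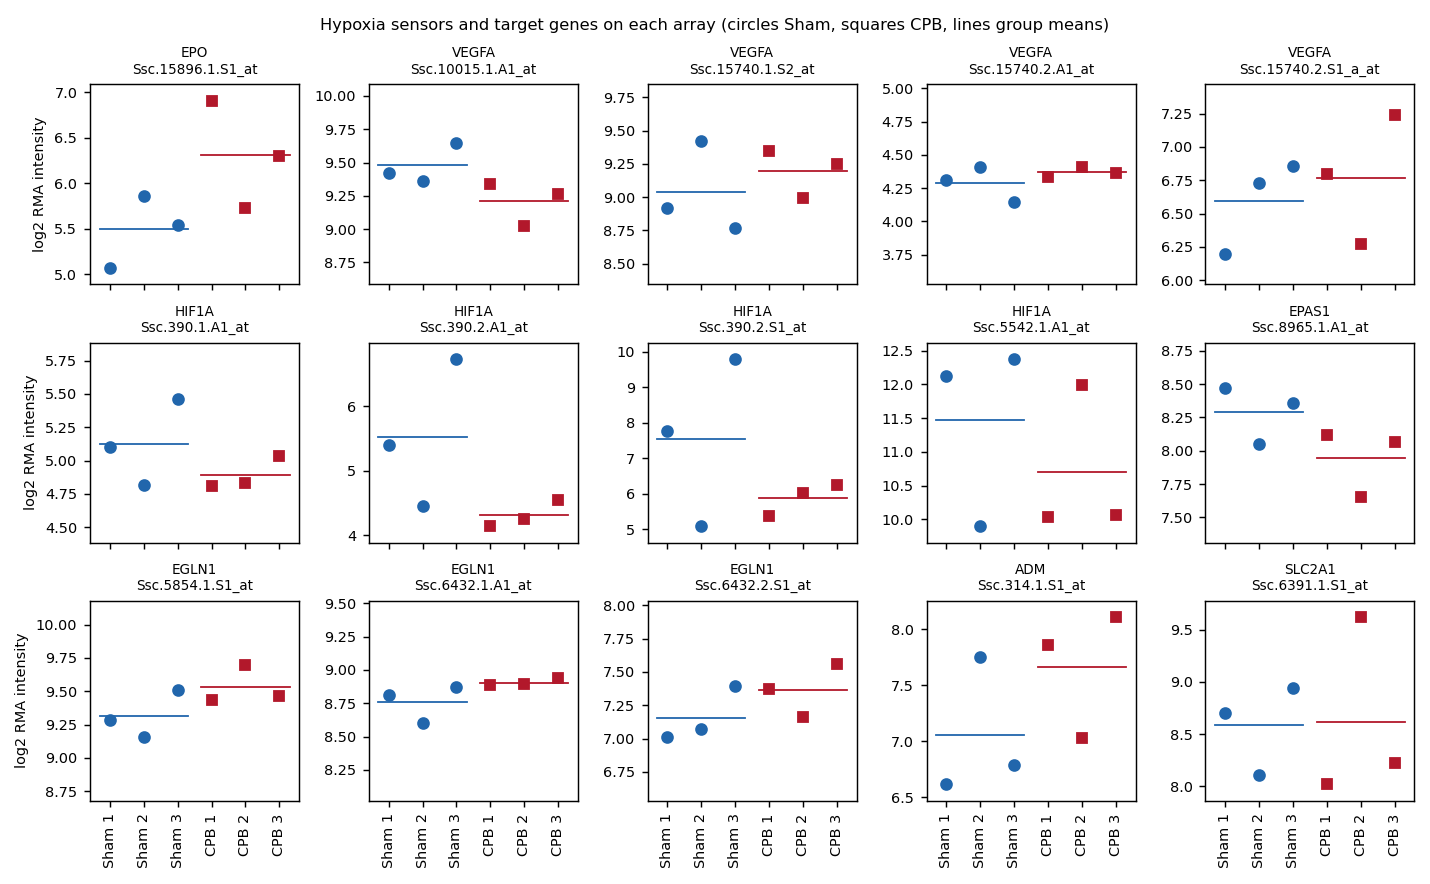
Log2 RMA intensity of the 15 probe sets on each array (3 Sham, circles; 3 CPB, squares; 1 animal each), with lines at the group means and a separate vertical axis for each probe set. The groups lie apart on 2 probe sets, Ssc.10015.1.A1_at of VEGFA and Ssc.6432.1.A1_at of EGLN1, and overlap on the other 13.

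Of the 15 probe sets, 3 of the 4 for HIF1A had the widest ranges between animals. On the brightest, Ssc.5542.1.A1_at, the Sham animals had intensities of 4454, 958 and 5301 and the CPB animals 1053, 4078 and 1071, each in the order of replicates 1 to 3. Sham 1, Sham 3 and CPB 2 were thus high and the other three low, and both groups held both kinds. The log2 difference was -0.77 (SE 0.83, 95% confidence interval -2.80 to 1.27). It was -1.55 without Sham 2 and -1.41 without CPB 2, and between -0.45 and -0.31 without any one of the 4 other arrays. The highest array lay 5.53-fold above the lowest, a spread above that of 97.0% of all probe sets, whose median was 1.48-fold.

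The second HIF1A probe set, Ssc.390.2.S1_at, had the widest spread of the 15. Its intensity was 219, 34.1 and 888 in Sham and 41.0, 64.9 and 76.4 in CPB, a 26.0-fold range that lay within the Sham group. Sham 3 stood far above the other arrays and Sham 2 was the lowest of the 6. The log2 difference of -1.68 (SE 1.13, 95% confidence interval -4.44 to 1.09) was -0.56 without Sham 3 and -2.91 without Sham 2. The latter met the study's threshold, with an adjusted p = 0.533 from limma. Over all 23999 probe sets, 701 met it without Sham 2 and 693 without CPB 2, in place of 73 with all arrays. These counts apply to every call below that was made without either array. The dim probe set Ssc.390.2.A1_at, annotated to the same accession, read 42.0, 22.0 and 106 in Sham and 17.7, 19.0 and 23.3 in CPB. Sham 3 and Sham 1 were again the highest, and Sham 2 lay inside the CPB range. Its log2 difference of -1.21 (SE 0.55) was -0.61 without Sham 3 and -1.75 without Sham 2, which also met the threshold. The remaining probe set, Ssc.390.1.A1_at, was also dim, with a mean level above 21.7% of all probe sets. It lay between 28.0 and 44.2 on the 6 arrays and differed by -0.24 (SE 0.19). CPB 2, among the highest arrays on the brightest HIF1A probe set, lay at 64.9, 19.0 and 28.5 on the 3 others. The probe sets of this gene thus did not order the CPB animals alike, though the values 19.0 and 28.5 come from the dim probe sets.

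EPAS1, which encodes HIF-2 alpha, had an intensity of 354, 265 and 328 in Sham and 278, 201 and 268 in CPB. The 2 highest arrays were Sham 1 and Sham 3 and the lowest was CPB 2, while Sham 2 lay among the CPB animals. The log2 difference was -0.35 (SE 0.18, 95% confidence interval -0.79 to 0.10). Leaving out 1 array at a time gave values from -0.47 to -0.20.

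EGLN1, the oxygen-sensing hydroxylase, was read by 3 probe sets with a narrow spread, and all 3 had a higher mean in CPB. The probe set Ssc.6432.1.A1_at read 449.7, 388 and 467 in Sham and 473, 475 and 490.3 in CPB. The CPB values all lay above the highest Sham value, by a small margin, and the log2 difference was 0.14 (SE 0.12). Over all probe sets, 3.38% had every CPB array above every Sham array. The brightest probe set, Ssc.5854.1.S1_at, read 624, 572 and 729.6 in Sham and 693, 832 and 706 in CPB and differed by 0.21 (SE 0.14, 95% confidence interval -0.14 to 0.57). Sham 3 lay above CPB 1 and CPB 3 there. The dimmest, Ssc.6432.2.S1_at, differed by 0.20 (SE 0.16), with Sham 3 at 168 above CPB 1 at 165 and CPB 2 at 143. The intervals of the 3 probe sets reached no further than 0.61 above and -0.20 below zero, so a 1.6-fold difference (0.68 on the log2 scale) lay outside each.

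EPO, the hormone of red cell production, had a low signal, with a mean level above 35.7% of all probe sets. Its intensity was 33.7, 58.3 and 46.7 in Sham and 119.8, 53.1 and 78.9 in CPB. CPB 1 and CPB 3 lay above every Sham animal, and CPB 2 lay inside the Sham range. The mean was 46.2 ± 12.3 (SD, n = 3) for Sham and 83.9 ± 33.6 (SD, n = 3) for CPB animals. The log2 difference of 0.82 (SE 0.35, 95% confidence interval -0.03 to 1.66) corresponds to 1.76-fold. Without CPB 2 it was 1.11 and met the study's threshold, with an adjusted p = 0.742 from limma. Without CPB 1 or CPB 3 or any Sham array it did not meet it, and the lowest of these values was 0.52.

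ADM, the vasodilator adrenomedullin, had an intensity of 98.3, 217 and 111 in Sham and 232, 131 and 276 in CPB. Sham 2 lay with CPB 1 and CPB 3, and CPB 2 with Sham 1 and Sham 3. The log2 difference was 0.61 (SE 0.40, 95% confidence interval -0.37 to 1.59). It met the study's threshold without Sham 2 (0.96, adjusted p = 0.533 from limma) and without CPB 2 (0.93, adjusted p = 0.742). Of all probe sets, 701 and 693 met it in these fits, in place of 73. Without Sham 1 and without CPB 3 it was 0.39 in both cases.

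VEGFA, the vascular endothelial growth factor, was read by 4 probe sets that differed in sign. The brightest, Ssc.10015.1.A1_at, read 687, 658 and 802 in Sham and 648, 521 and 614 in CPB. Every CPB animal lay below every Sham animal, with 648 in CPB 1 next to 658 in Sham 2, and the log2 difference was -0.27 (SE 0.14, 95% confidence interval -0.61 to 0.08). Over all probe sets, 1.89% had every CPB array below every Sham array. The next brightest, Ssc.15740.1.S2_at, read 485, 685 and 437 in Sham and 651, 509.96 and 607 in CPB. Here Sham 2 was the highest array and Sham 1 and Sham 3 the lowest, and the difference was 0.16 (SE 0.20). The probe set Ssc.15740.2.S1_a_at lay between 73.4 and 151 and differed by 0.17 (SE 0.30), with a sign that turned without Sham 1 (-0.03) and without CPB 3 (-0.06). The dimmest, Ssc.15740.2.A1_at, lay between 17.7 and 21.3 on all arrays, at a mean level above 13.6% of all probe sets, and differed by 0.08 (SE 0.12).

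SLC2A1, the glucose transporter GLUT1, had an intensity of 415, 276 and 492 in Sham and 259.7, 786 and 298 in CPB. CPB 2 was the highest array and CPB 1 the lowest, so the CPB group spanned the whole Sham group. The log2 difference was 0.04 (SE 0.47, 95% confidence interval -1.10 to 1.17). It turned to -0.46 without CPB 2 and to -0.20 without Sham 2.

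**Figure D2:**
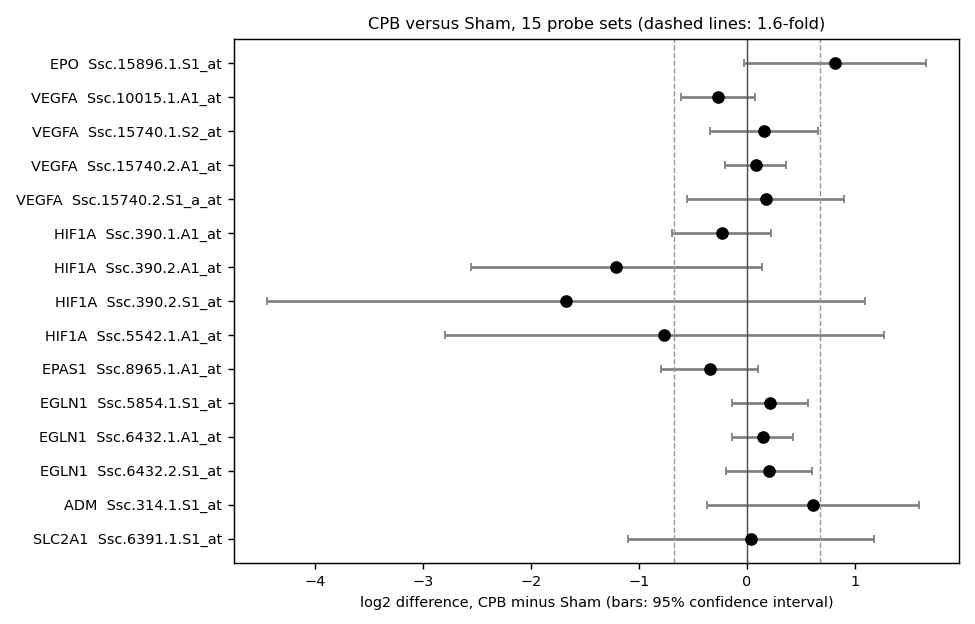
Log2 difference between CPB and Sham for the 15 probe sets, with bars for limma's 95% confidence interval (n = 3 animals per group) and dashed lines at 1.6-fold. Every interval spans zero, and the widest, that of the HIF1A probe set Ssc.390.2.S1_at, runs from -4.44 to 1.09.

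The members were not high or low on the same arrays. The brightest HIF1A probe set and SLC2A1 were highest in Sham 1, Sham 3 and CPB 2, whereas EPO, ADM and the VEGFA probe set Ssc.15740.1.S2_at were lowest in those same animals. In whole tissue, fewer cells of a type and less RNA per cell cannot be told apart, so marker genes of medullary and neighbouring cell types were read beside the members. The 11 measured of 22 proximal tubule markers summed to an intensity of 2355 to 27570.4 in Sham and of 3451 to 32574.5 in CPB. LRP2, the endocytic receptor megalin of that segment, was at 181, 2390 and 899 in Sham and 2469, 169 and 2740 in CPB. Each list was also given as the mean log2 level of its genes, each centred on its mean over the 6 arrays. For the proximal tubule markers this centred level was -2.48, 1.42 and -0.26 in Sham and 1.37, -1.81 and 1.77 in CPB. The arrays lowest in these markers were thus Sham 1, CPB 2 and Sham 3.

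The mean of the 4 measured of 9 urothelium markers was lowest on the 3 arrays that were highest in proximal tubule markers. Its centred levels were 0.51, -0.87 and 1.70 in Sham and -0.88, 0.49 and -0.95 in CPB. UPK1B and UPK3A were also lowest on these 3 arrays. UPK1A was instead lowest in CPB 2 (30.3), and UPK2 was lower in Sham 1 (63.71) than in Sham 2 (63.97) and CPB 1 (64.16). Their summed intensity was 196 to 1931 in Sham and 184 to 1054 in CPB. UPK1B, a plaque protein of the urothelium that lines the renal pelvis, was at 207, 33.4 and 1208 in Sham and 35.3, 116 and 28.4 in CPB. Sham 3 was the highest array for UPK1A, UPK1B and UPK2, whereas CPB 2 was the highest for UPK3A, at 837 against 528 in Sham 3. The 11 measured of 15 endothelial markers had centred levels of 0.64, -0.27 and 0.24 in Sham and -0.46, 0.51 and -0.66 in CPB. Their median log2 difference was -0.65, with a lower CPB mean for 7 and a higher one for 4. PECAM1, an adhesion molecule of endothelial cells, differed by -0.75 (SE 0.29) on the brighter of its 2 probe sets. It was the 1 marker of the list that met the study's threshold, with overlapping groups. The study listed PECAM1 as lower in CPB on this probe set and on another. The brighter probe set no longer met the threshold without Sham 1 (-0.54), Sham 3 (-0.75), CPB 1 (-0.72) or CPB 3 (-0.56). The summed intensity of the list was 2427 to 4774 in Sham and 1736 to 3828 in CPB. EPAS1 followed this order in Sham but not in CPB, where CPB 2 was lowest for EPAS1 and highest for the markers.

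The 5 measured of 10 interstitial and pericyte markers, from the cells that include the makers of EPO, had centred levels of 0.40, -0.41 and 0.53 in Sham and 0.15, -0.06 and -0.63 in CPB. Their summed intensity was 2786 to 5957 in Sham and 2015 to 3727 in CPB, so CPB 3, second highest for EPO, was lowest for these markers. The 8 measured of 11 leukocyte markers stayed between -0.08 and 0.06 (summed intensity 644 to 816 in Sham and 673 to 766 in CPB). The 2 measured of 4 erythroid markers, which read blood left in the tissue, lay between -0.12 and 0.19 (summed intensity 316 to 432 in Sham and 267 to 339 in CPB), and HBB, a globin gene, differed by -0.38 (SE 0.22) while ALAS2, a heme synthesis enzyme of red cell precursors, differed by 0.18 (SE 0.21). Of the medullary markers, 3 of 7 of the thick ascending limb and 5 of 12 of the collecting duct were measured. They had summed intensities of 2961 to 5849 and 3514 to 5821 in Sham and of 4539 to 4942 and 2609 to 6784 in CPB. Their centred levels lay between -0.64 and 0.40 for the thick ascending limb and between -0.12 and 0.19 for the collecting duct. The highest collecting duct sums were mostly AQP3, a water channel, at 4831 in Sham 1 and 5437 in CPB 2. The defining genes UMOD and AQP2 matched no probe set. RMA intensities are always above 0, so these sums do not show that a cell type was present on every array. The part that these cell type differences have in the members' values was not tested, except that the centred level of the proximal tubule markers was added to the fit as a covariate. With it the log2 difference was 0.62 for EPO, 0.36 for ADM, -0.28 for the brightest HIF1A probe set and 0.29 for SLC2A1. Again none of the 15 probe sets met the study's threshold. EPO then had an unadjusted p = 0.0227 from limma (adjusted p = 0.997), at less than 1.6-fold. Lists of proximal tubule, endothelial and urothelial markers were known from earlier results to vary between these arrays.

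**Figure D3:**
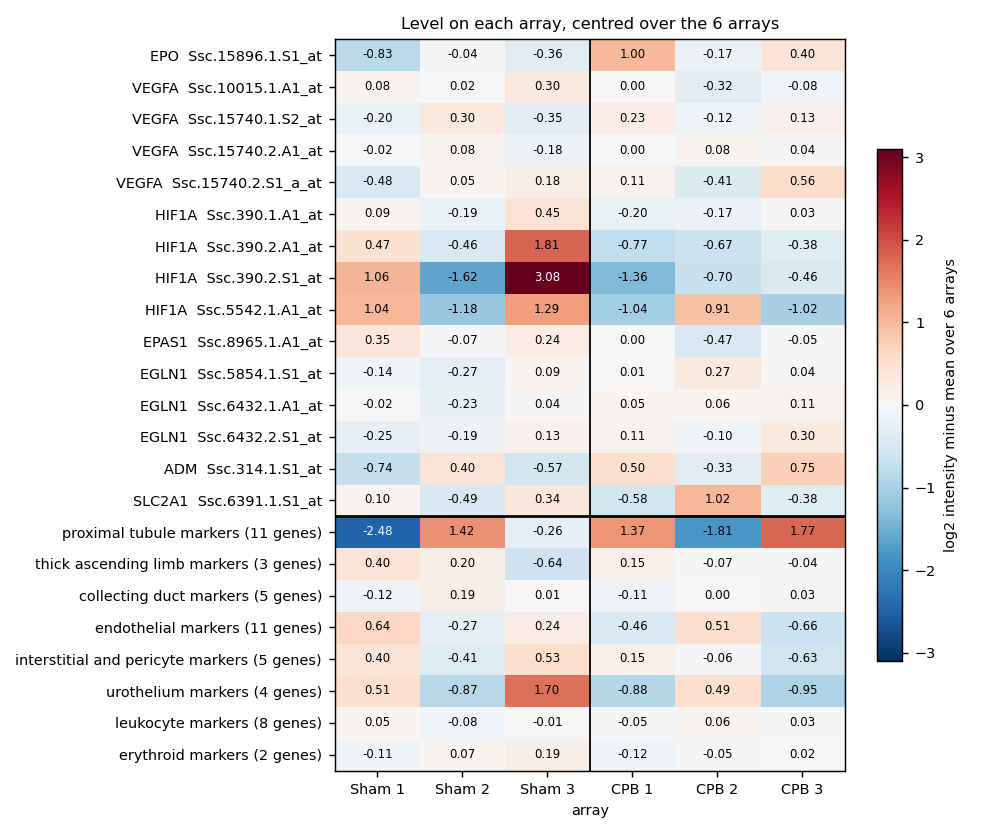
Log2 level of the 15 probe sets (above the thick line) and mean log2 level of 8 marker lists (below it) on each of the 6 arrays, each centred on its mean over the arrays, with red above and blue below that mean. The proximal tubule markers run from -2.48 in Sham 1 to 1.77 in CPB 3, and the brightest HIF1A probe set is above its mean in Sham 1, Sham 3 and CPB 2.

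Of 104 other genes of the HIF pathway, in 5 lists, 68 had a probe set with 1 gene symbol. On its brightest probe set 1 gene met the study's threshold, higher in CPB, against 0.370% of the 6765 genes on the array with 1 symbol taken in the same way, and none passed limma's adjusted p of 0.05, while 3 had an unadjusted p under 0.05. The number with such a p was 1 without Sham 1, Sham 3 or CPB 3, 2 without CPB 1, 8 without CPB 2 and 9 without Sham 2. The median log2 difference of the 68 was 0.04, beside 0.03 for those 6765 genes, with 37 higher and 31 lower in mean. The groups did not overlap for 9 of the 68, against 5.37% of the 6765.

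The gene that met the threshold was SLC16A3, which exports lactate from glycolytic cells and which the study had picked on the same arrays. Its intensity was 80.8, 113.8 and 59.9 in Sham and 153, 178 and 223 in CPB, so the lowest CPB animal lay above the highest Sham animal. The log2 difference was 1.15 (SE 0.27, adjusted p = 0.995 from limma), and between 0.93 and 1.39 with 1 array left out at a time, each past the threshold. By real-time PCR the study also reported SLC16A3 RNA as higher in CPB, and by Western blotting no significant change of its protein. The 14 measured of 18 glycolytic targets, SLC16A3 among them, had a median log2 difference of 0.10, with a higher CPB mean for 10. TPI1 and GPI, glycolytic isomerases, differed by 0.32 (SE 0.17) and 0.43 (SE 0.23), and CPB 2 was the highest array for both, at 1469 and 2873. Without CPB 2 the differences were 0.21 and 0.22.

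Of the HIF partners and regulators, 9 of 20 were measured, and none met the threshold (median -0.05, 3 with a higher and 6 with a lower mean in CPB). SIAH2, a ubiquitin ligase that degrades prolyl hydroxylases, was at 258, 297 and 259.8 in Sham and 299, 329.6 and 341 in CPB, and differed by 0.25 (SE 0.12) with no overlap. Its 4 other probe sets differed by 0.18 to 0.31, with overlapping groups. CUL2, the scaffold of the VHL ligase, differed by -0.25 (SE 0.13) and did not overlap either. HSP90AB1, a chaperone that stabilises HIF1A, differed by -0.31 (SE 0.21), and by -0.50 without Sham 2 and -0.13 without Sham 3.

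Of the receptors of EPO, VEGFA and ADM, 8 of 9 were measured, and none met the threshold (median 0.07). CALCRL, the receptor of adrenomedullin, was dim, at 18.3, 15.4 and 33.2 in Sham and 11.9, 14.3 and 14.7 in CPB. Every CPB animal lay below every Sham animal, and the log2 difference of -0.63 (SE 0.30) met the threshold without Sham 2 (-0.86) and was -0.31 without Sham 3, its highest array. RAMP2, its accessory protein, differed by -0.54 (SE 0.38), with 626 in Sham 1 as the highest array, and by -0.17 without that array. RAMP3, another accessory protein, differed by 0.13 (SE 0.13).

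Of 14 close relatives of the members, 8 were measured, and none met the threshold (median 0.19, 6 with a higher mean). BNIP3L, a mitophagy receptor related to BNIP3, was at 1542, 981 and 1504 in Sham and 882, 1139.5 and 894 in CPB. Sham 1 and Sham 3 were the highest arrays and Sham 2 lay inside the CPB range, and the log2 difference was -0.45 (SE 0.22). Its other probe set differed by -0.57 (SE 0.22). SLC2A2 and SLC2A5, which carry glucose and fructose, differed by 0.72 (SE 0.78) and 0.95 (SE 1.03). SLC2A5 ranged from 49.6 in Sham 1 to 581 in CPB 3, the arrays lowest and highest in proximal tubule markers. The difference of SLC2A2 was 1.54 without CPB 2, which met the threshold, and 0.37 without Sham 1 and 0.21 without CPB 3. That of SLC2A5 lay between 0.27 without Sham 1 and 1.89 without CPB 2.

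Of 43 other HIF targets, 29 were measured, and none met the threshold (median -0.05, 12 with a higher and 17 with a lower mean). ANGPTL4, an inhibitor of lipoprotein lipase, was at 381, 495 and 351 in Sham and 593, 515 and 689 in CPB. The CPB animals all lay above the Sham animals, and the log2 difference of 0.56 (SE 0.18) had an unadjusted p = 0.0229 from limma at less than 1.6-fold. It met the threshold without Sham 2 (0.70), and its unadjusted p from limma rose to between 0.0597 and 0.0743 without Sham 1, Sham 3, CPB 1 or CPB 3. Its dimmer probe set differed by 0.75 (SE 0.34) with overlapping groups. CCNG2, an inhibitory cyclin, was at 585, 634 and 646 in Sham and 514, 515 and 362 in CPB, without overlap, and differed by -0.44 (SE 0.17), or by -0.27 without CPB 3. MXI1, an antagonist of MYC, differed by -0.44 (SE 0.23), and by -0.70 without Sham 2, which met the threshold, and by -0.27 without Sham 3.

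**Figure D4:**
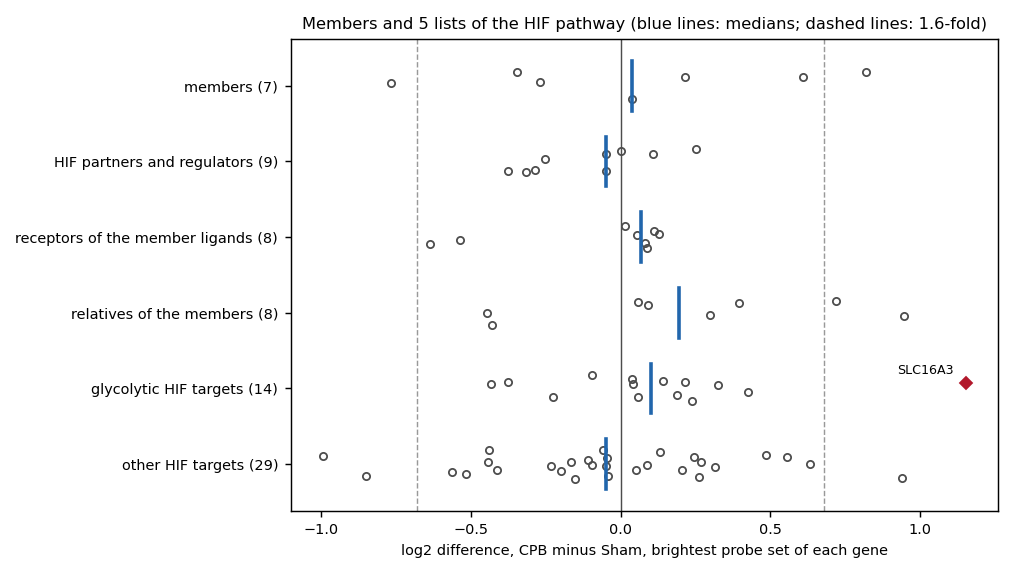
Log2 difference between CPB and Sham on the brightest probe set of each gene, for the 7 measured members and the 5 pathway lists, with blue lines at the list medians and dashed lines at 1.6-fold. The filled diamond is SLC16A3 at 1.15, the one gene that met the study's threshold, and the medians lie between -0.05 and 0.19.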

How the data were processed

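The authors hybridised medulla RNA from 6 pigs to Affymetrix porcine arrays and normalised them with RMA (background correction, quantile normalization, median polish). The deposited intensity values are on a linear scale, read from their size, for 24123 probe sets, and log2 was taken here. The 124 control probe sets were left out. CPB and Sham were compared in R 4.3.3 with limma 3.58.1 (group as the only term, Benjamini-Hochberg adjustment over 23999 probe sets). The number of arrays limits the precision: with 3 arrays per group the smallest two-sided exact permutation p is 0.1. Depth does not apply to arrays. The fit was also run on simulated data with independent values for each probe set and array. That leaves out variation which probe sets share on an array, so the fit was not tested under it.

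Of 10297 annotated probe sets, 10099 carry 1 symbol and 198 several, and only the former were named. SLC2A1's Entrez number was not found in the RefSeq gene table used here, so its symbol is the array annotation's. The array values name no genome build, so positions are not given, and no sequences were used here. Pathway genes were read on their brightest probe set. Genes named are all members and, per list, those past the study's threshold and the 3 with the smallest p. The members and lists were chosen with earlier results of these data known. The alternatives were another test, variance model, normalization, filter, covariate, replicate block, fold minimum and each array left out.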

Additional observations from a re-analysis of the deposited data

How the results depend on the processing

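The number of the 15 member probe sets that met the study's threshold was 0 in the reported fit. It stayed 0 with a t-test on log2 values, an intensity trend, centring on the median and a second quantile normalization. It also stayed 0 with the filter on dim probe sets, control probe sets kept, the proximal tubule covariate and fold minimums of 1.5 and 2. With array weights it was 5 and that of the 68 pathway genes 19 in place of 1. These weights ran from 0.344 for Sham 2 to 6.16 for CPB 1 and their estimation stopped before convergence, and 2116 of all probe sets then met the threshold in place of 73. With 1 array left out at a time the member count lay between 0 and 3 and the pathway count between 1 and 6. Both moved only without Sham 2 (3 and 5) and without CPB 2 (2 and 6), which also raised the count over all probe sets to 701 and 693. The number of member probe sets whose groups did not overlap, 2 in the reported comparison, lay between 2 and 11, with 11 without Sham 2, where 32.4% of all probe sets did not overlap, and 4 without CPB 2 or Sham 3, where 22.2% and 9.03% did not. The number of pathway genes with an unadjusted p under 0.05, 3 in the reported fit, was 1 with the replicate block, 9 with the tubule covariate and 24 with array weights. Of the 15 member probe sets none had such a p in the reported fit. The number was 1 with the replicate block (EPAS1), 1 with the tubule covariate (EPO) and 7 with array weights. Over all probe sets it was 336 in the reported fit, 268 with the block, 613 with the covariate and 5486 with the weights. No member or pathway gene passed an adjusted p of 0.05 under any of these settings.

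Of the values of single probe sets, SLC2A1 turned to -0.61 with array weights and lay between -0.46 and 0.34 with 1 array left out, and the VEGFA probe set Ssc.15740.2.S1_a_at between -0.063 and 0.42. LDHA and HK1 turned to 0.031 and 0.058 with the tubule covariate and lay between -1.16 and 0.062 and between -1.02 and 0.075 with 1 array left out. LRP2 turned to -0.42 with that covariate, of whose list it is a member, and lay between -0.49 and 1.83. The cause was not tested. The other 40 probe sets of the 45 recomputed kept their sign. PECAM1 no longer met the threshold with the methods' t-test, the replicate block or the tubule covariate (-0.57). The replicate number was also tried as a block, and the count of member probe sets past the threshold was 0 and that of pathway genes 1 with it. Deviations of same-numbered arrays from group means correlated at -0.39, -0.68 and -0.02 across probe sets. They sum to 0 per group, so pairing is not excluded. The 95% confidence intervals of EPO, ADM, SLC2A1, 3 HIF1A probe sets and 1 VEGFA probe set reached more than 1.6-fold to either side of the estimate, so a difference of that size could go undetected there. The intervals of EPAS1 (down to -0.79) and the HIF1A probe set Ssc.390.1.A1_at (down to -0.70) also included a 1.6-fold lower level in CPB.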

Other observations

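LDHA, CAV1 and HK1, chosen after their values were seen, were highest in the same 3 animals as the brightest HIF1A probe set. Genes outside the HIF lists, such as AQP3 of the collecting duct list and TEK of the endothelial list, were also highest there. These animals were the lowest in proximal tubule markers, and the cause of the pattern was not tested. LDHA, which makes lactate, had an intensity of 2153, 572 and 3107 in Sham and 719, 2962 and 729.8 in CPB. CAV1, the coat protein of caveolae, was at 1813, 310.2 and 1417 in Sham and 279, 980 and 370.1 in CPB. HK1, a hexokinase, was at 1575, 527 and 1021 in Sham and 556, 1788 and 390.3 in CPB. For each of these genes the groups overlapped, and the log2 differences were -0.43 (SE 0.82) for LDHA, -0.99 (SE 0.79) for CAV1 and -0.38 (SE 0.66) for HK1. Without Sham 3 that of LDHA was 0.062, and without CPB 3 that of HK1 was 0.075.

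HMOX1, a heme-degrading enzyme, had the order of ADM, also chosen after its values were seen. Its intensity was 188, 387 and 212 in Sham and 415, 224 and 616 in CPB, with Sham 2 beside CPB 1 and CPB 3, and the log2 difference was 0.63 (SE 0.44).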
